A study of Mus musculus with 16 samples.

Results

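The troponin genes measured here were the 7 members Tnni1, Tnni2, Tnnt1, Tnnt2, Tnnt3, Tnnc1 and Tnnc2, found by matching the Ensembl identifiers of the count table to these symbols in the GENCODE annotation of GRCm38. They were 7 of 29730 genes in the table, and all 7 were among the 14960 genes that passed the filter on low counts. RNA was sequenced in 16 libraries from the tibialis anterior, a shin muscle, of male C57BL/6N mice aged 7 weeks. WT_PBS came from wild-type mice given PBS, a buffered saline, and WT_ASO from wild-type mice injected with ASO1, an antisense oligonucleotide. KO_PBS and KO_ASO came from Bin1mck-/- mice given PBS or ASO1, and each of these 4 groups held 4 samples. An antisense oligonucleotide pairs with an RNA to lower its level, and Dnm2 is the target named for ASO1. Bin1mck-/- mice are a model of recessive centronuclear myopathy, a disease of skeletal muscle in which Bin1, a protein that shapes membranes, is lost. The dose, the injection schedule, and the driver and extent of the Bin1 deletion were not stated. The labels do not tie each library to an animal of its own, so P values measure the spread between these samples.

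Troponin is the calcium switch of striated muscle. It sits on the thin filament with tropomyosin and has 3 kinds of subunit. Troponin C binds calcium, troponin I inhibits contraction at rest, and troponin T anchors the complex to tropomyosin. Fast skeletal fibres use Tnni2, Tnnt3 and Tnnc2, whereas slow skeletal fibres use Tnni1, Tnnt1 and Tnnc1. Tnnc1 also serves the heart, where it works with Tnnt2, the cardiac troponin T, and Tnni3, the cardiac troponin I. Developing skeletal muscle transiently expresses Tnni1 and Tnnt2, and the adult mouse tibialis anterior is made almost wholly of fast fibres.

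The troponin I and T genes lie in pairs. On GRCm38, Tnni1 (ENSMUSG00000026418, chromosome 1, 135779434 to 135810989, plus strand) and Tnnt2 (ENSMUSG00000026414, chromosome 1, 135836354 to 135852260, plus strand) are 25.4 kb apart. The fast genes Tnni2 (ENSMUSG00000031097, chromosome 7, 142441808 to 142444410, plus strand) and Tnnt3 (ENSMUSG00000061723, chromosome 7, 142498836 to 142516009, plus strand) are 54.4 kb apart. Tnnt1 (ENSMUSG00000064179, chromosome 7, 4504570 to 4516382, minus strand) lies 1.92 kb from Tnni3. Tnni3 is on the same strand at higher coordinates, so it is upstream of Tnnt1 in the direction of transcription. Both troponin C genes stand alone, with Tnnc1 (ENSMUSG00000091898) at chromosome 14, 31208312 to 31211729, plus strand, and Tnnc2 (ENSMUSG00000017300) at chromosome 2, 164777161 to 164779967, minus strand. All 7 are annotated as protein coding.

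Promoter sequences are shown because 5 of the 7 genes differed between the saline genotypes, as described further on. RefSeq promoter windows of 300 bases (250 before and 50 after the transcription start, GRCm38.p6) were found for 5 of the 7 genes, in 7 windows, and Tnni2 and Tnnt3 had no entry. The genes with a window are not the same 5 as those that differed. Tnni2 and Tnnt3 differed, whereas Tnnt1 and Tnnc1, shown here, did not pass the test. The starts used for Tnni1, Tnnt1 and Tnnc2 lie inside the annotated genes. Of the 120 bases shown, 19 for Tnni1, 29 for Tnnt1 and 7 for Tnnc2 belong to an annotated exon of the same gene. The 120 bases before the start are shown 5′ to 3′ on the gene's own strand, with the first window where a gene had 2. Capitals mark the E-box, MCAT and TATA box matches described after the sequences.
Tnni1, chr1:135799301-135799420, plus strand: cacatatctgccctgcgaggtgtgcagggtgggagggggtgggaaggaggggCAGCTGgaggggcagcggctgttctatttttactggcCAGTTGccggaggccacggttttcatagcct
Tnnt2, chr1:135836214-135836333, plus strand: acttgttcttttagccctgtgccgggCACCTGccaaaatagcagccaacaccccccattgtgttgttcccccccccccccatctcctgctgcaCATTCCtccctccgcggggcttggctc
Tnnt1, chr7:4515976-4516095, minus strand: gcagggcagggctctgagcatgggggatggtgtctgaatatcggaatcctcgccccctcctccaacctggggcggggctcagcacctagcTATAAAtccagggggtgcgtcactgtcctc
Tnnc1, chr14:31208192-31208311, plus strand: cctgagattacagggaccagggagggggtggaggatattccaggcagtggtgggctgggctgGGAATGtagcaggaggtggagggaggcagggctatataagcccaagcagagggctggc
Tnnc2, chr2:164779735-164779854, minus strand: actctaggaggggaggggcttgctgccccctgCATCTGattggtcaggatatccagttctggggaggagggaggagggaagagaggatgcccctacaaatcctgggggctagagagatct

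Both strands were searched for 5 motifs of muscle promoters. The E-box CANNTG, bound by myogenic factors such as MyoD and myogenin, was present in each of the 7 windows, and 72.3% of all 32851 windows of this length hold it. The MCAT element CATTCC, bound by TEAD factors, occurred in the first Tnnt2 window, from 27 to 22 bases before the start, and on the opposite strand in Tnnc1, from 58 to 53 bases before it. MCAT is held by 14.7% of all windows. The exact TATA box letters TATAAA were found in Tnnt1 alone of these genes, from 30 to 25 bases before the start, against 13.6% of all windows. Other forms of the TATA box were not searched, and the Tnnc1 sequence shown holds the letters tatataag near its end. The MEF2 motif (3.19% of all windows) and the CArG box (1.63%) had no match in the 7 windows. No match overlapped a match of another motif. A match is a description of letters and not evidence of a bound factor.

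In wild-type muscle given saline, the 3 fast genes stood far above the other members. Levels between genes are compared as CPM (counts per TMM-scaled library size, times a fixed factor) per kilobase of merged exons. In WT_PBS, Tnnt3 measured 12584 ± 1023 CPM per kilobase (SD, n = 4), Tnnc2 10934 ± 879.8 (SD, n = 4) and Tnni2 5388 ± 469.5 (SD, n = 4). The slow genes followed, with Tnnt1 at 2.89 ± 1.27 CPM per kilobase, Tnnc1 at 2.74 ± 1.24 and Tnni1 at 0.823 ± 0.314 (SD, n = 4 each). Tnnt2 was at 0.426 ± 0.0974 CPM per kilobase (SD, n = 4). The ranges of Tnnt1 (1.61 to 4.42) and Tnnc1 (1.36 to 3.82) overlapped over the 4 samples, so that this pair had no order, and Tnni1 (0.362 to 1.05) and Tnnt2 (0.322 to 0.551) also overlapped. The fast trio took 3.57% ± 0.272 of all counts in WT_PBS (SD, n = 4) and the slow trio 0.00119% ± 0.000514 (SD, n = 4). The order of mean levels was the same with the longest transcript of each gene in place of merged exons.

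The depth behind these values differed by isoform. Total counts per sample ran from 27591900 to 40862854, and a fast gene held 203982 to 849779 counts in a sample. Slow and cardiac members held 35 to 1983 counts, so that their precision was set more by the spread between samples than by counting. Of the exons of Tnnc2, 592 of 800 bases (74.0%) also belong to exons of Ube2c on the other strand. The kit kept strand, but whether the counting used it was not stated. Tnnc2 averaged 279863 counts and Ube2c 115. Tnnt3 and Tnnc1 overlap Prr33 and Nisch on the other strand in introns only. Of all 40-base windows of their transcripts, at most 2.79% of any other member also occurred in a transcript of another gene.

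The labels were checked on the targeted genes. Bin1 measured 494.7 ± 40.6 CPM in WT_PBS and 44.9 ± 3.27 CPM in KO_PBS, and Dnm2 62.8 ± 3.63 CPM in KO_PBS and 24.8 ± 4.48 CPM in KO_ASO (SD, n = 4 each). Heart muscle was nearly absent from the libraries. The cardiac troponin I Tnni3 held 6 to 21 counts in a sample, and the atrial light chain Myl7, the cardiac myosin binding protein Mybpc3 and the natriuretic peptides Nppa and Nppb held 0 to 7. The sum of the 6 heart muscle markers ran from 3.20 to 7.37 CPM in WT_PBS, 2.81 to 10.1 in WT_ASO, 2.68 to 5.42 in KO_PBS and 3.50 to 5.21 in KO_ASO, most of it from Myh6. Myl7 and Nppb were at 0 in all WT_ASO samples and Nppb in all KO_ASO samples. Only 2 of the 6 passed the filter on low counts, and in KO_PBS vs WT_PBS edgeR called 0 of these, with 0 at an unadjusted P under 0.05.

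The 2 genotypes were first compared under saline, as KO_PBS vs WT_PBS. Of the 7 troponin genes, 5 were differentially expressed genes (DEGs, edgeR adjusted P value under 0.05), against 12.6% of all genes tested, and DESeq2 called 6 (16.9%). Tnni1 and Tnnt2 rose in KO_PBS (7.43% of all genes were DEGs in this direction), and the fast trio Tnni2, Tnnt3 and Tnnc2 fell (5.12%). Tnni1 had the largest log2 fold change (log2FC) of the 7, while the fast genes stood at 0.758 to 0.772 of their far higher WT_PBS level. Tnnt1 and Tnnc1, the other slow members, had positive log2FC but did not pass the test. In 6 of the 7 genes no KO_PBS sample overlapped the WT_PBS range, against 20.4% of all genes. In bulk RNA, fewer fibres of a type and less RNA per fibre cannot be told apart.

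Tnni1, the slow troponin I, measured 3.597, 1.30, 3.76 and 3.18 CPM in WT_PBS replicates 1 to 4. In KO_PBS it measured 45.3, 20.9, 12.2 and 24.6 CPM. Every KO_PBS sample lay above every WT_PBS sample, with replicate 1 the highest. The log2FC was 3.10 (SE 0.59, 95% interval 1.83 to 4.37, edgeR adjusted P = 0.00414), a fold of 8.58. By exact permutation (two-sided) P was 0.0286, which is the lowest value possible with 4 samples against 4. The call held without any single library, with log2FC from 2.68 to 3.33.

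Tnnt2, the cardiac and developmental troponin T, measured 4.27, 2.496, 3.45 and 2.98 CPM in WT_PBS. Its values in KO_PBS were 16.02, 8.95, 5.58 and 12.8 CPM, again without overlap and again highest in replicate 1. The log2FC was 1.71 (SE 0.35, 95% interval 0.97 to 2.45, edgeR adjusted P = 0.00481), a fold of 3.28, and it stayed a DEG without any single library. Tnni3, the other cardiac troponin, was at 0.334 ± 0.130 CPM in WT_PBS and 0.310 ± 0.139 CPM in KO_PBS (SD, n = 4 each), with a log2FC of -0.092 (SE 0.40, 95% interval -0.93 to 0.74).

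Tnnt1, the slow troponin T, measured 9.74, 3.54, 7.55 and 4.66 CPM in WT_PBS and 54.7, 13.1, 8.95 and 27.2 CPM in KO_PBS. KO_PBS replicate 3 lay below WT_PBS replicate 1, so the groups overlapped. The log2FC was 2.02 (SE 0.65, 95% interval 0.63 to 3.41) and missed the threshold (edgeR adjusted P = 0.0564). It was called by DESeq2 (adjusted P = 0.0145), in the edgeR fit of the compared groups alone (adjusted P = 0.0336), with library totals only (adjusted P = 0.0417) and without KO_PBS replicate 3 (adjusted P = 0.0367). It was not called by edgeR when any other single library of these groups was left out, and without KO_PBS replicate 1, its highest sample, the log2FC was 1.36 (edgeR adjusted P = 0.215).

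Tnnc1, the calcium sensor of slow fibres and heart, measured 3.98, 1.42, 3.89 and 2.11 CPM in WT_PBS and 12.4, 7.25, 5.36 and 12.2 CPM in KO_PBS. The groups did not overlap. The log2FC was 1.70 (SE 0.69, 95% interval 0.23 to 3.17) and did not pass the test over all groups (edgeR adjusted P = 0.125), whereas the fit of the compared groups alone called it (adjusted P = 0.0132).

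The 3 fast genes were low together in KO_PBS. Tnnt3 measured 21334, 21294, 18749 and 18306 CPM in WT_PBS and 14702, 15984, 15572 and 14103 CPM in KO_PBS (log2FC -0.40, SE 0.10, edgeR adjusted P = 0.0153). Tnni2 measured 8741, 8500.1, 7843 and 7178 CPM in WT_PBS and 6224, 6582, 6539.9 and 5545 CPM in KO_PBS (log2FC -0.37, SE 0.10, edgeR adjusted P = 0.0276). Tnnc2 went from 8899, 9179, 9198 and 7711 CPM to 6796, 7320.2, 6895 and 5587 CPM (log2FC -0.40, SE 0.12, edgeR adjusted P = 0.0341). None of the 3 overlapped between the groups, and KO_PBS replicate 4 was the lowest sample for each.

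The calls on the fast genes were lost under another scaling and without some single libraries. With library totals only, which moves the median log2FC of all genes from -0.011 to 0.14, the log2FC were -0.22 for Tnni2, -0.25 for Tnnt3 and -0.25 for Tnnc2, and none of the 3 passed (edgeR adjusted P = 0.111, 0.0588 and 0.126). Without single libraries the log2FC stayed from -0.44 to -0.36 for Tnnt3, -0.43 to -0.32 for Tnni2 and -0.45 to -0.31 for Tnnc2. The call on Tnnt3 was lost without KO_PBS replicate 1 (edgeR adjusted P = 0.0504). Tnni2 was lost without WT_PBS replicate 1 or 2 or KO_PBS replicate 1 or 4 (edgeR adjusted P from 0.0699 to 0.0838). Tnnc2 was lost without any of WT_PBS replicates 1, 2 and 3 and KO_PBS replicates 1, 3 and 4 (edgeR adjusted P from 0.0529 to 0.106), and in the fit of the compared groups alone (0.0521).

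**Figure D1:**
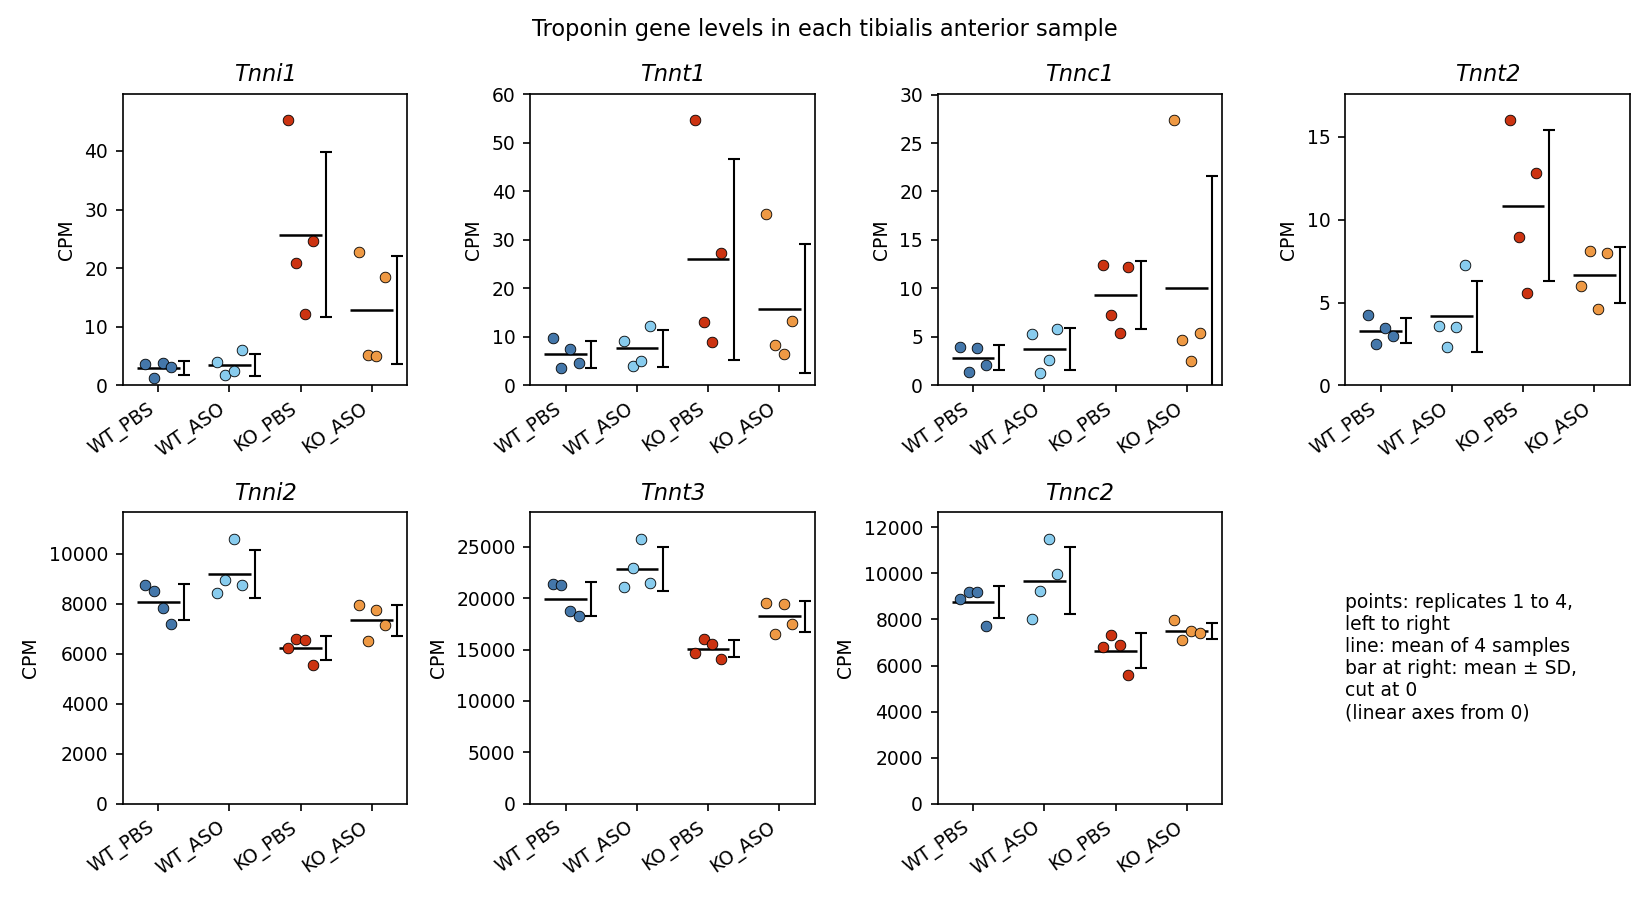
CPM of each troponin gene (vertical, linear from 0) in the 4 samples of each group (horizontal), with the mean as a line and the mean ± SD as a bar cut at 0. Tnni1 and Tnnt2 sit higher in all KO_PBS samples than in all WT_PBS samples, and the 3 fast genes sit lower.

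Other genes of the contractile apparatus were read beside the troponins, by counts over each list and with the median log2FC of all genes at -0.011. Of 15 thin filament partners, 3 rose, 1 fell and 11 did not pass in KO_PBS vs WT_PBS, with a list median of -0.082. Of all genes tested, 7.43% rose and 5.12% fell in this comparison. Klhl40, a stabiliser of thin filament proteins, rose (log2FC 1.56, SE 0.15, edgeR adjusted P = 8.96e-06), as did its relative Klhl41 (0.55, SE 0.11, edgeR adjusted P = 0.00448). Of 11 slow fibre genes other than the troponins, 2 rose and 9 did not pass (7.43% of all genes rose), with a list median of 0.83. They were Atp2a2, the slow calcium pump (log2FC 0.76, SE 0.17, edgeR adjusted P = 0.00924), and Csrp3, a stress-responsive Z-disc protein (2.77, SE 0.77, edgeR adjusted P = 0.0318). Csrp3 measured 1249, 534.1, 285.6 and 328.2 CPM in KO_PBS replicates 1 to 4. Not all of the list was higher. From WT_PBS to KO_PBS, mean CPM went from 120.6 to 88.4 for Myl3 and from 5.58 to 4.59 for Myh7b, with overlapping samples. The slow fibre count was 1 without WT_PBS replicate 1, 2 or 4 or KO_PBS replicate 1 or 2.

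Of 12 fast fibre genes, 4 fell and 8 did not pass (5.12% of all genes fell), with a list median of -0.47. Mylk2, the kinase of the skeletal myosin light chain, fell (log2FC -0.92, SE 0.21, edgeR adjusted P = 0.00892), as did the Z-disc gene Myoz1 (-0.41, SE 0.12, edgeR adjusted P = 0.0326). The myosin heavy chains of the list did not all go down. From WT_PBS to KO_PBS, mean CPM went from 15163 to 19312 for Myh1 and from 1543 to 2159 for Myh2. For Myh4 it went from 39347 to 24012, and for each of these genes the samples of both groups overlapped. Only 1 of the 12 was called with library totals only or without WT_PBS replicate 2 or 4 or KO_PBS replicate 1, and 2 were called without WT_PBS replicate 3.

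Lists for other cells and states were read in the same comparison. Of 13 developmental and denervation genes, 12 rose and 1 did not pass (7.43% of all genes rose), with a list median of 1.78. Ncam1, an adhesion molecule that reappears on denervated fibres, rose (log2FC 2.26, SE 0.15, edgeR adjusted P = 1.03e-07). Sox11, a developmental transcription factor, went from 0.0557 ± 0.0157 CPM, at 1 to 3 counts in a sample, to 2.24 ± 0.648 CPM (SD, n = 4 each). The summed level of the list ran from 74.1 to 82.6 CPM in WT_PBS, 90.5 to 104.4 in WT_ASO, 212.2 to 316.6 in KO_PBS and 107.7 to 152.2 in KO_ASO, with no marker at 0 in a whole group.

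Of 11 macrophage genes, 10 rose and 1 did not pass (7.43% of all genes rose), with a list median of 1.68. Without WT_PBS replicate 4, 6 of the list rose, while the genes called higher among all tested went from 1112 of 14960 to 667 of 15102. Cd68, a lysosomal protein of macrophages, rose (log2FC 3.41, SE 0.31, edgeR adjusted P = 7.49e-06), as did the scavenger receptor Cd163 (1.51, SE 0.29, edgeR adjusted P = 0.00355). The summed level of all 11 genes ran from 49.8 to 80.2 CPM in WT_PBS, 51.2 to 113.2 in WT_ASO, 129.2 to 383.0 in KO_PBS and 54.8 to 84.3 in KO_ASO, with no gene at 0 in a whole group. Of 5 tested satellite cell and fusion genes, 2 fell and 3 did not pass (5.12% of all genes fell), with a list median of -0.25. These were Pax7 (log2FC -1.39, SE 0.22, edgeR adjusted P = 0.000654) and Myf5 (-1.30, SE 0.37, edgeR adjusted P = 0.0300), both markers of satellite cells, and 1 was called with library totals only or without WT_PBS replicate 3 or 4 or KO_PBS replicate 1, 2 or 3. The summed level of all 6 genes ran from 33.1 to 42.0 CPM in WT_PBS, 32.8 to 47.3 in WT_ASO, 33.3 to 38.7 in KO_PBS and 40.1 to 56.0 in KO_ASO. The part of these cells and states in the troponin results was not tested.

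Whether ASO1 altered troponin expression in the knockout was taken from KO_ASO vs KO_PBS, which shares the KO_PBS samples with the comparison of genotypes. None of the 7 genes was a DEG (0 of 7, against 3.64% of all genes), and 2 had an unadjusted edgeR P under 0.05 (17.7% of all genes). DESeq2 called 1, Tnnt3 (adjusted P = 0.0333), against 7.07% of all genes. Tnnt3 measured 19558, 16536, 19394 and 17450.4 CPM in KO_ASO, above all 4 KO_PBS samples, and was the only member without overlap (10.4% of all genes). Its log2FC was 0.27 (SE 0.10, 95% interval 0.062 to 0.48, edgeR adjusted P = 0.148). The log2FC was 0.24 for Tnni2 (SE 0.10, 95% interval 0.015 to 0.46, edgeR adjusted P = 0.241) and 0.18 for Tnnc2 (SE 0.12, 95% interval -0.068 to 0.42, edgeR adjusted P = 0.473).

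The slow members varied widely among the KO_ASO samples, the highest being 4.51 to 10.8 times the lowest, against 1.76 times for Tnnt2. Tnni1 measured 22.8, 5.11, 5.05 and 18.5 CPM in KO_ASO, so that replicates 1 and 4 lay inside the KO_PBS range of 12.2 to 45.3 CPM and replicates 2 and 3 below it. Its log2FC was -0.99 (SE 0.54, 95% interval -2.15 to 0.16, edgeR adjusted P = 0.367). Tnnt2 measured 5.97, 8.09, 4.60 and 8.01 CPM, a log2FC of -0.70 (SE 0.34, 95% interval -1.42 to 0.013, edgeR adjusted P = 0.294). Both intervals reach from a fall of more than 2-fold to no difference.

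Tnnt1 measured 35.3, 8.37, 6.37 and 13.2 CPM in KO_ASO, a log2FC of -0.71 (SE 0.62, 95% interval -2.04 to 0.62, edgeR adjusted P = 0.625). It was -0.049 without KO_PBS replicate 1 and -1.48 without KO_ASO replicate 1. Tnnc1 measured 27.4, 4.67, 2.53 and 5.44 CPM. Replicate 1 thus held the highest Tnnc1 of all 16 samples, while replicates 2 and 3 lay below the KO_PBS range of 5.36 to 12.4 CPM and replicate 4 just inside it. The log2FC of Tnnc1 was 0.11 (SE 0.65, 95% interval -1.28 to 1.504, edgeR adjusted P = 0.956) and, without KO_ASO replicate 1, -1.14 (edgeR adjusted P = 0.303). The same sample held 108.9 CPM of Myh7, the slow myosin heavy chain, where the other 15 samples held 1.68 to 18.02, and 65.1 CPM of Myl2, the slow myosin light chain, where the others held 1.04 to 36.4. Myh7 and Myl2 were named here after their values were seen.

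Beside the troponins, 1 of 15 thin filament partners was higher and 1 lower in KO_ASO than in KO_PBS, where 0.802% of all genes rose and 2.83% fell. Klhl40 fell by 1.04 on the log2 scale (SE 0.15, edgeR adjusted P = 0.00103) and Tpm1, an alpha tropomyosin, rose (log2FC 0.56, SE 0.15, edgeR adjusted P = 0.0475). Of the 15, 1 was called in the compared groups alone, or with any of replicates 1, 3 and 4 of either group left out. Of 12 fast fibre genes 1, Mylk2, rose (log2FC 0.91, SE 0.21, edgeR adjusted P = 0.0240), and edgeR called 0 of them once any of KO_PBS replicates 1 and 4 and KO_ASO replicates 1, 2 and 3 was left out. Of the developmental and denervation genes, 7 of 13 fell, led by Ncam1 (log2FC -1.54, SE 0.14, edgeR adjusted P = 3.15e-05) and Sox11 (-1.76, SE 0.25, edgeR adjusted P = 0.00118), and 4 without KO_PBS replicate 1. Of the macrophage genes, 7 of 11 fell, led by Cd68 (-2.63, SE 0.29, edgeR adjusted P = 0.000228) and Cd163 (-1.58, SE 0.30, edgeR adjusted P = 0.0084), again against 2.83% of all genes. That count was 3 when any of the 5 libraries named for Mylk2 was left out. Of the slow fibre genes 0 of 11 were called (3.64% of all genes), with 0 at an unadjusted edgeR P under 0.05 (17.7%). Of the satellite cell and fusion genes 0 of 5 were called, with 2 at an unadjusted edgeR P under 0.05.

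In wild-type muscle ASO1 was compared with saline in WT_ASO vs WT_PBS. No troponin gene was a DEG (0 of 7, against 0.00668% of all genes), with 0 at an unadjusted edgeR P under 0.05 (6.45% of all genes) and 0 by DESeq2 (0.221%). The lowest edgeR adjusted P of a member was 0.802, for Tnnt3, and 0 of 7 were without overlap (3.22% of all genes). Tnni1 measured 3.89, 1.74, 2.52 and 6.00 CPM in WT_ASO, a log2FC of 0.24 (SE 0.59, 95% interval -1.03 to 1.51). Tnnt2 measured 3.60, 2.29, 3.49 and 7.28 CPM, a log2FC of 0.33 (SE 0.35, 95% interval -0.41 to 1.082). The fast genes Tnnt3, Tnni2 and Tnnc2 had log2FC of 0.20, 0.19 and 0.15, with 95% intervals that together ran from -0.096 to 0.41. Such intervals leave room for differences of more than 2-fold in the slow members and limit the fast ones to a fold of at most 1.33.

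Whether the effect of ASO1 differed between genotypes was tested as an interaction. None of the 7 genes passed (0 of 7, against 0.575% of all genes), and 1, Tnnt2, had an unadjusted edgeR P of 0.0495 (12.7% of all genes were under 0.05). Its difference of effects was -1.04 (SE 0.49, adjusted P = 0.392), and DESeq2 called 0 of 7 (2.68% of all genes). For Tnni1 the difference was -1.24 (SE 0.80, 95% interval -2.95 to 0.48). For the fast genes the 3 differences lay between 0.029 and 0.076. A difference in the effect of ASO1 between genotypes was therefore not detected for any member by these tests. Outside the family, 1 of 15 thin filament partners, 3 of 13 developmental and denervation genes and 2 of 11 macrophage genes passed, all with a negative difference, and 0 of 11 slow fibre and 0 of 12 fast fibre genes did, with 0 of either list at an unadjusted edgeR P under 0.05. Klhl40 had a difference of -1.25 (SE 0.20, edgeR adjusted P = 0.0116) and Ncam1 of -1.52 (SE 0.20, edgeR adjusted P = 0.00348). Sox11 also passed (edgeR adjusted P = 0.00344), and no size is given for it because WT_PBS held 1 to 3 counts in a sample. Of the macrophage genes, Cd68 had a difference of -3.11 (SE 0.42, edgeR adjusted P = 0.00355) and Cd163 of -2.05 (SE 0.42, edgeR adjusted P = 0.0391). The macrophage count was 1 without any one of WT_PBS replicates 1, 3 and 4, WT_ASO replicates 1, 3 and 4, KO_PBS replicates 1 and 4, and KO_ASO replicates 1, 2 and 3.

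**Figure D2:**
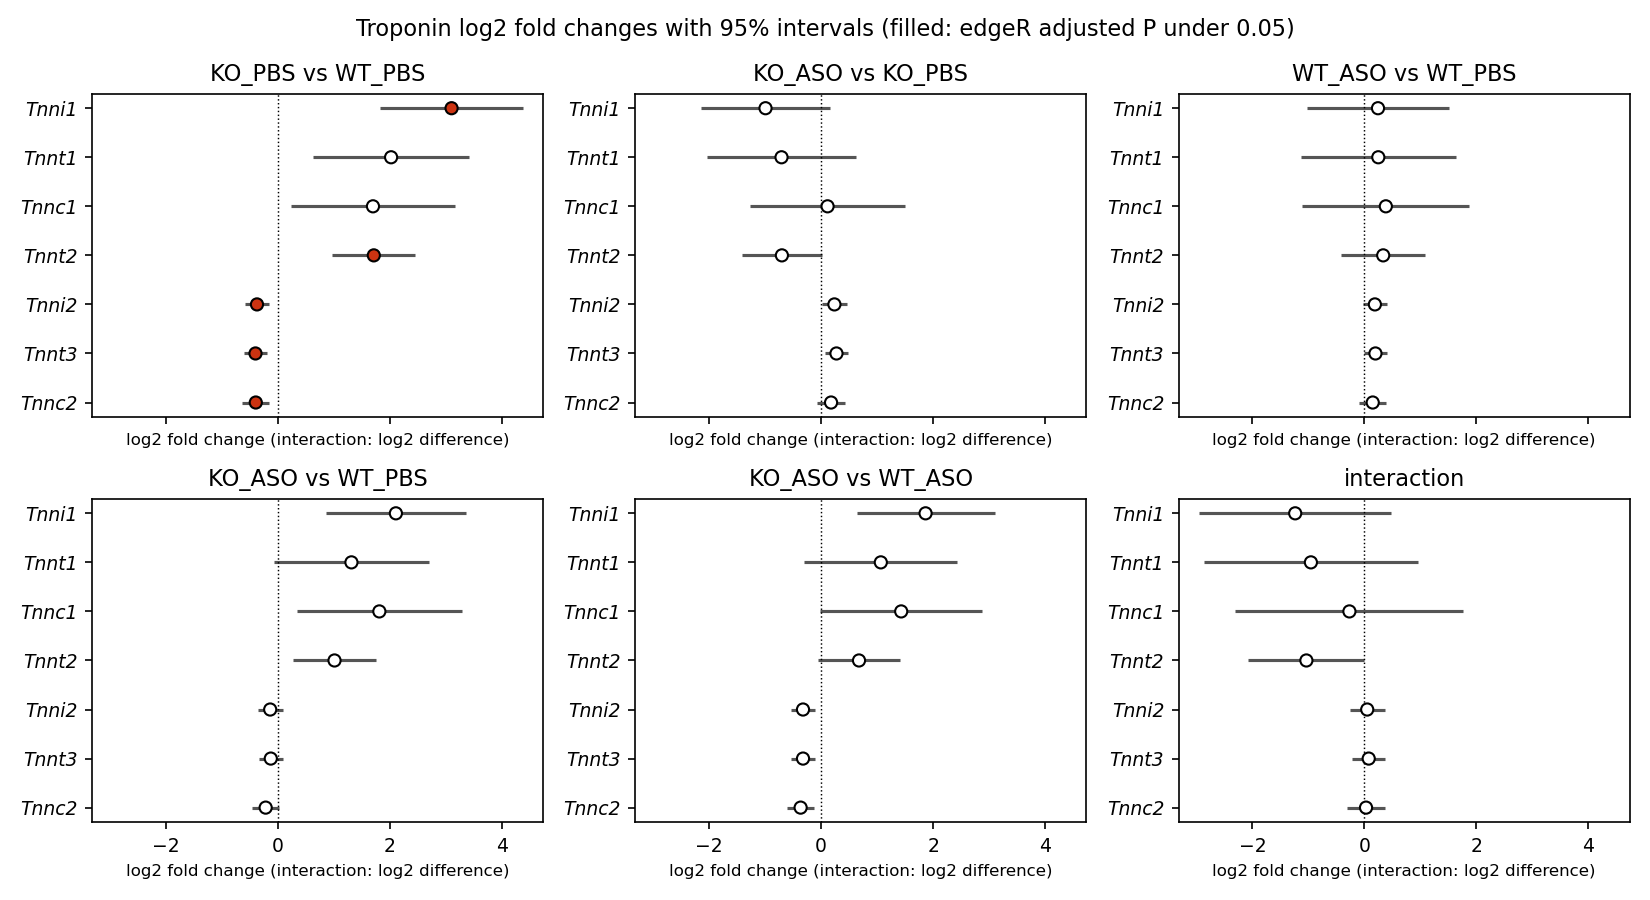
Log2FC of each troponin gene (points) with its 95% interval (lines) in the 5 pairwise comparisons, and the difference of effects in the interaction, where filled points are edgeR DEGs. The 5 filled points are all in KO_PBS vs WT_PBS, and the intervals of Tnni1, Tnnt1 and Tnnc1 are several times wider than those of Tnni2, Tnnt3 and Tnnc2.

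Treated knockouts were then set against both wild-type groups. In KO_ASO vs WT_PBS 0 of 7 genes were DEGs (0.0401% of all genes), 3 had an unadjusted edgeR P under 0.05 (8.22%) and DESeq2 called 1, Tnni1 (adjusted P = 0.0471, 0.636% of all genes). All 4 KO_ASO samples lay above all 4 WT_PBS samples for Tnni1 (log2FC 2.11, SE 0.58, edgeR adjusted P = 0.310) and Tnnt2 (1.01, SE 0.35, edgeR adjusted P = 0.468), which makes 2 of 7 without overlap against 5.39% of all genes. Tnnt3, Tnni2 and Tnnc2 had log2FC of -0.13, -0.14 and -0.22. Tnnc1 had a log2FC of 1.81 (SE 0.69, edgeR adjusted P = 0.531), which was 0.55 without KO_ASO replicate 1, and Tnnt1 of 1.31 (SE 0.64, edgeR adjusted P = 0.627), which was 0.54 without that sample. Of the developmental and denervation genes 2 of 13 were higher in KO_ASO, namely Sox11, at 0.660 ± 0.129 CPM in KO_ASO (SD, n = 4, edgeR adjusted P = 0.000204), and Myog, the myogenic factor myogenin (log2FC 1.94, SE 0.31, edgeR adjusted P = 0.0418). That count was 1 without any one WT_PBS sample or KO_ASO replicate 2 or 4.

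In KO_ASO vs WT_ASO 0 of 7 were DEGs (0.0735% of all genes), 4 had an unadjusted edgeR P under 0.05 (15.1%) and DESeq2 called 4, Tnni1, Tnni2, Tnnt3 and Tnnc2 (3.2% of all genes). The fast trio did not overlap, with KO_ASO lower, which makes 3 of 7 against 6.97% of all genes. The log2FC was -0.32 for Tnnt3 (SE 0.10, edgeR adjusted P = 0.165), -0.32 for Tnni2 (SE 0.10, edgeR adjusted P = 0.175) and -0.37 for Tnnc2 (SE 0.12, edgeR adjusted P = 0.173). For Tnni1 it was 1.86 (SE 0.57, edgeR adjusted P = 0.174).

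The make-up of the troponin pool was described by the share of an isoform among the transcripts of its subunit, per kilobase of merged exons. The share is a score over members and was not tested. Tnni1 made up 0.0155% ± 0.00617 of troponin I in WT_PBS, 0.0164% ± 0.00946 in WT_ASO, 0.174% ± 0.0957 in KO_PBS and 0.0718% ± 0.0487 in KO_ASO (SD, n = 4 each). Its highest value in any sample was 0.302%, so that Tnni2 provided nearly all troponin I transcripts in each of the 16 samples. Tnnt1 made up 0.0230% ± 0.00958 of troponin T in WT_PBS, 0.0246% ± 0.0136 in WT_ASO, 0.126% ± 0.103 in KO_PBS and 0.0610% ± 0.0474 in KO_ASO (SD, n = 4 each). Its mean was 0.0794% in KO_PBS without replicate 1 and 0.0381% in KO_ASO without replicate 1. Tnnt2 made up 0.00339% ± 0.000734 in WT_PBS, 0.00380% ± 0.00216 in WT_ASO, 0.0149% ± 0.00673 in KO_PBS and 0.00761% ± 0.00247 in KO_ASO (SD, n = 4 each). Tnnc1 made up 0.0249% ± 0.0105 of troponin C in WT_PBS, 0.0308% ± 0.0199 in WT_ASO, 0.111% ± 0.0514 in KO_PBS and 0.0988% ± 0.110 in KO_ASO (SD, n = 4 each). The last mean rested on replicate 1, without which it was 0.0441%. Slow and cardiac isoforms were thus minor in every group, and the fast trio still took 3.02% ± 0.196 of all counts in KO_PBS and 3.34% ± 0.131 in KO_ASO (SD, n = 4 each).

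**Figure D3:**
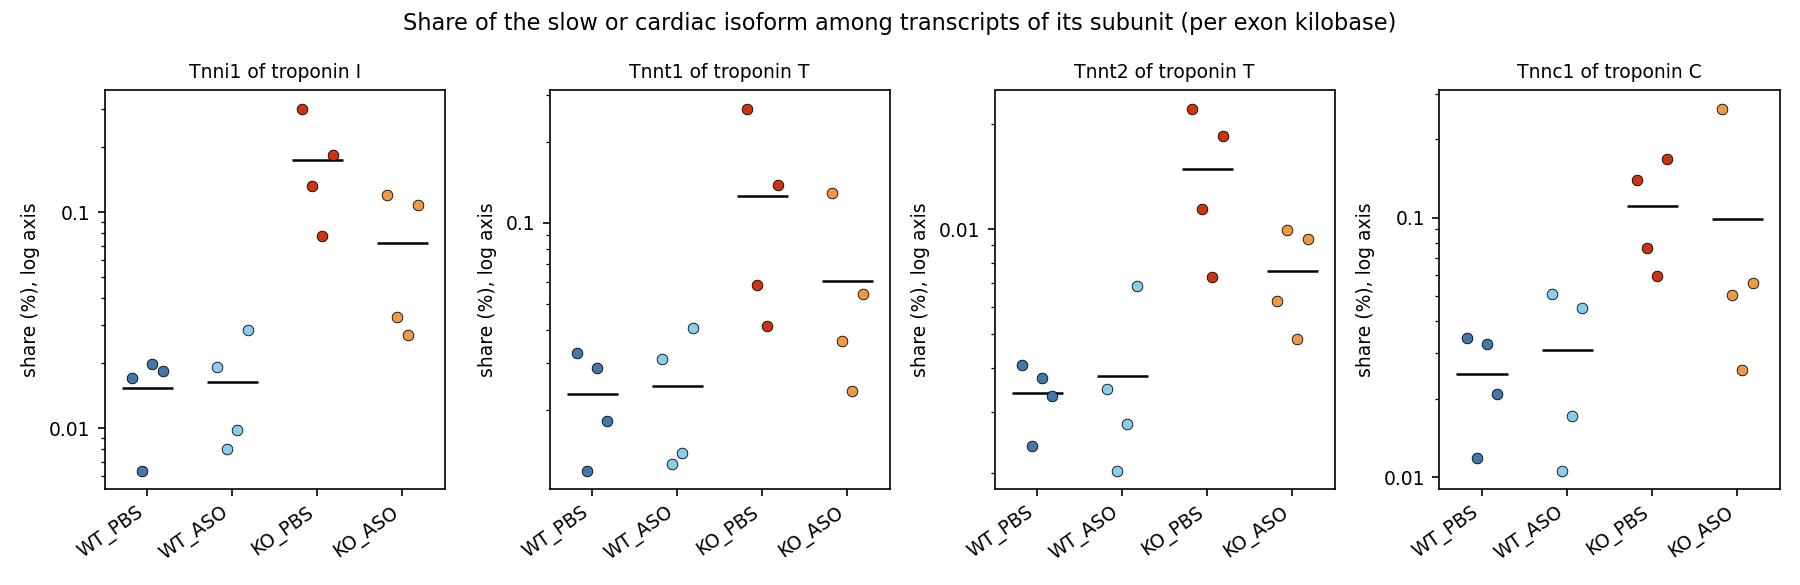
Share of Tnni1, Tnnt1, Tnnt2 and Tnnc1 among the transcripts of their subunit, in percent on a log axis, in each sample by group, with the group mean as a line. For each of the 4 genes the share in every KO_PBS sample lies above all 8 wild-type samples, for Tnnt1 narrowly (0.0413% against 0.0407%). The share also reflects the lower fast genes of KO_PBS. By CPM, KO_PBS replicate 3 lay below WT_ASO replicate 4 for Tnnt1 (8.95 against 12.2), Tnnt2 (5.58 against 7.28) and Tnnc1 (5.36 against 5.81). The KO_ASO samples overlap the KO_PBS samples, and no sample exceeds 0.302%.

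The balance of subunits within a fibre type was read as a ratio of levels per kilobase, a choice made after the values were seen. The fast ratio of Tnni2 to Tnnt3 was nearly constant, from 0.413 to 0.448 over all 16 samples, with a coefficient of variation of 2.54%. Tnnc2 over Tnnt3 ran from 0.753 to 0.971. The slow ratio of Tnnc1 to Tnnt1 was 0.940 ± 0.112 in WT_PBS and 0.969 ± 0.353 in KO_PBS (SD, n = 4 each). Tnni1 over Tnnt1, by contrast, measured 0.226, 0.226, 0.305 and 0.418 in WT_PBS and 0.507, 0.977, 0.834 and 0.553 in KO_PBS, without overlap. In KO_ASO it measured 0.396, 0.374, 0.486 and 0.857 and overlapped both, and in WT_ASO it ran from 0.262 to 0.308. Tnni1 was therefore higher relative to Tnnt1 in each KO_PBS sample than in any wild-type sample.

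**Figure D4:**
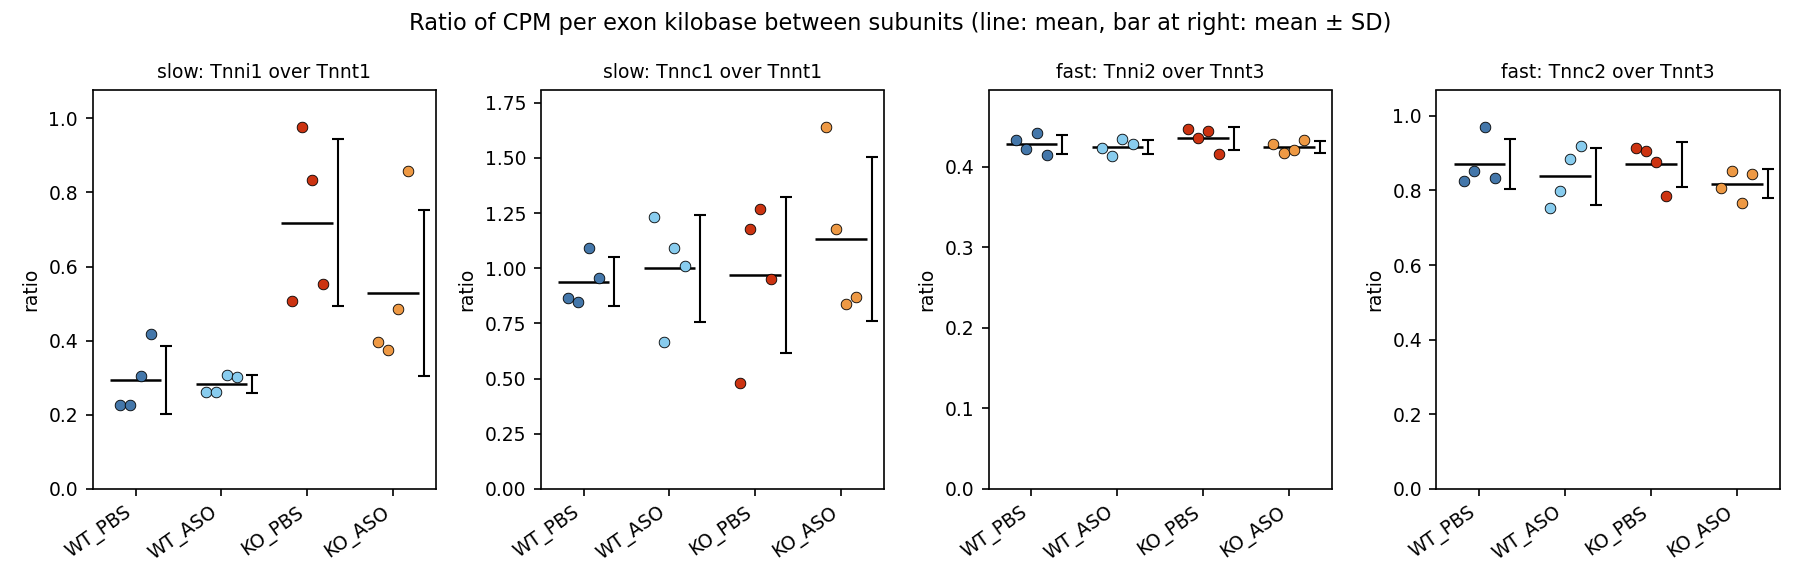
Ratio of levels per kilobase (vertical, linear from 0) between subunits of the slow and of the fast complex in each sample, with the mean as a line and the mean ± SD as a bar. Tnni1 over Tnnt1 is higher in all KO_PBS samples than in all 8 wild-type samples, while Tnni2 over Tnnt3 stays between 0.413 and 0.448.

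Members fell into 2 sets by how they varied over the 16 samples. Correlations are Pearson's r of log2 CPM, given as a description without a P value, since samples of a group share its treatment and genotype. Tnni1, Tnnt1 and Tnnc1 had r from 0.87 to 0.94 with each other and Tnnt2 had r from 0.77 to 0.90 with these 3. The fast trio had r from 0.92 to 0.99 with each other. When the group means were subtracted, the slow trio kept r from 0.84 to 0.90 and the fast trio from 0.73 to 0.96, while pairs of the slow trio with the fast trio went from between -0.77 and -0.50 to between -0.24 and -0.019. Samples with more of one slow troponin thus had more of the others also within a group. Tnnt2 within groups had r of 0.68 with Tnni1, 0.72 with Tnnt1 and 0.57 with Tnnc1, and of -0.43 with Tnnt3.

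**Figure D5:**
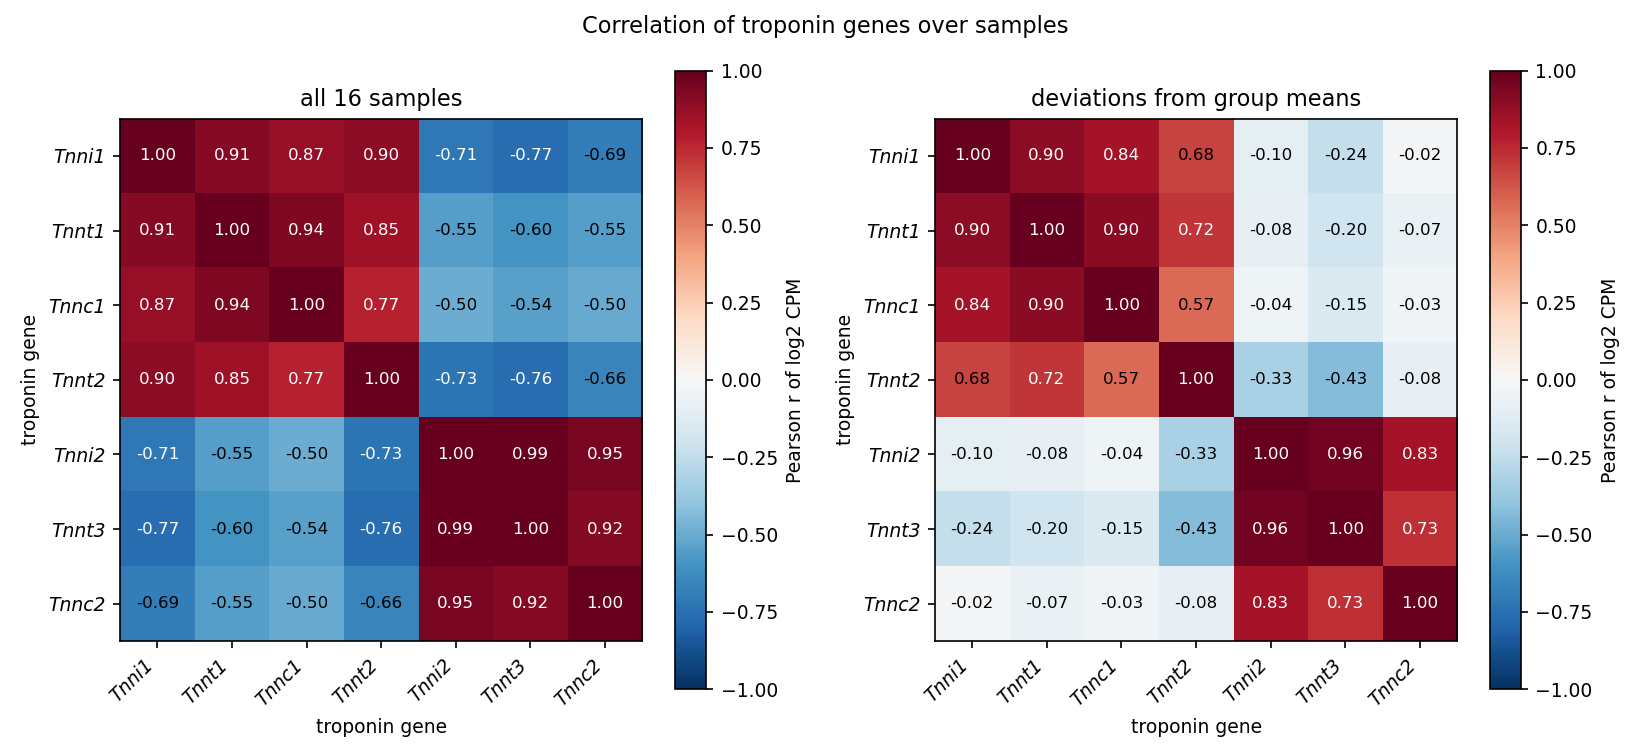
Pearson's r of log2 CPM between troponin genes over all 16 samples (left) and for deviations from the group means (right), on a colour scale from -1 to 1. The slow and cardiac block and the fast block are positive in both, and the negative values between the blocks are near 0 for most pairs on the right.

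The genes outside the family that varied most like each member were found among all genes tested. Closest to Tnni1 were Galns (r = 0.95), Itga5 (0.93) and Ubash3b (0.93), with r of 0.88, 0.80 and 0.78 within groups. Closest to Tnnt2 were 5930412G12Rik (0.96), Ubash3b (0.94) and Klf5 (0.92), with 0.89, 0.90 and 0.89 within groups. Tnnt1 was most like Agrp (0.91), Gm11716 (0.90) and Myom3 (0.90), and Tnnc1 most like Myl2 (0.89), Mybpc1 (0.88) and Gm12092 (0.88). Myl2, Myom3 and Mybpc1 encode proteins of the sarcomere.

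Among the fast genes, Tnnt3 was most like Prr33 (0.95), Lrrc20 (0.95) and Nap1l4 (0.95), and Tnni2 most like Ufc1 (0.94), Prr33 (0.93) and Nap1l4 (0.93). Prr33 overlaps Tnnt3 on the opposite strand without sharing exon bases, and Nap1l4 lies 0.998 Mb from Tnnt3 on the same chromosome. Tnnc2 was most like Nfu1 (0.93), Mettl22 (0.93) and Ak1 (0.93), of which Ak1 is a muscle adenylate kinase.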

How the data were processed

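Gene counts from 16 tibialis anterior libraries were analysed in 4 labelled groups of 4. The deposited values are whole-number counts of reads for each Ensembl gene, without normalization by the authors. Tools listed in the submitters' processing notes are HTSeq 0.6.1p1, STAR 2.5.3a, Bowtie2 2.2.8 and cutadapt 1.10, with the build GRCm38 (mm10), and per the labels the library kit was stranded. The annotation release and the strand setting used for counting were not stated.

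Counts were fitted with edgeR 4.0.16 (R 4.3.3) by its quasi-likelihood test (robust), with a mean for each of the 4 groups over all 16 samples, after filterByExpr and TMM scaling. This left 14960 of 29730 genes. Benjamini-Hochberg adjustment ran over all genes tested, with DEGs called under 0.05. The SE is the log2FC divided by the square root of F. CPM uses TMM-scaled library sizes, and log2 CPM a prior count of 2. Exact permutation tests were two-sided. Totals were 27591900 to 40862854 counts per sample. The members held at least 35 counts in every sample, while genes at a few counts, such as Tnni3 and Sox11, are limited by counting error. The fitting code was tested on simulated data. No 2 samples of a group agreed within sampling noise.

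The members and all gene lists were chosen with earlier results of these data known, so counts over them are descriptions. The genes named were all 7 members, Bin1, Dnm2 and Tnni3, the 2 called genes with the smallest P of each list in a comparison, and the 3 genes most correlated with each member. Outside that rule the other heart muscle markers were named for their low counts, and Myh7 was named after its values were seen, as was Myl2 in KO_ASO replicate 1. Myh1, Myh2, Myh4, Myl3 and Myh7b were also named after their values were seen. Alternatives were other scaling (RLE, library totals), no filter, DESeq2 1.42.0, limma-voom (limma 3.58.1), the compared groups alone, a replicate block, each replicate left out, and other lengths for the shares. Protein sequences were not used here.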

Additional observations from a re-analysis of the deposited data

Results flagged for a closer look

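Of 68 sets of 4 samples checked for a sample far from the others (each member's CPM, the shares, the ratios and the summed shares of counts, by group), 2 had one, where chance alone would mark about 1 in 20. Both concern KO_ASO replicate 1. It held 27.4 CPM of Tnnc1, where the other KO_ASO samples held 2.53 to 5.44 CPM. Its Tnnc1 share of troponin C was 0.263%, where the others ran from 0.0258% to 0.0562%. The 2 values share the same Tnnc1 counts and are not independent. The same sample also held the highest Myh7 and Myl2 of all 16 samples.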

How the results depend on the processing

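Of 679 log2FC of single members under an alternative, 636 kept their direction and side of the threshold, 15 lost a call, 13 gained one and 15 changed sign, none of them called. Tnni1 and Tnnt2 remained DEGs in KO_PBS vs WT_PBS under every alternative run. In that comparison 5 members were called, 3 with library totals only, and 2 to 5 without single replicates. Among all genes, 1112 of 1878 calls were higher in KO_PBS in the main fit, and 1942 of 2202 with library totals only. DESeq2 called 1 member in KO_ASO vs KO_PBS, 1 in KO_ASO vs WT_PBS and 4 in KO_ASO vs WT_ASO, where edgeR called 0. The cause of these differences was not tested.

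Replicate numbers are shared between groups, but same-numbered samples did not all deviate together: over the 5 comparisons their correlations ran from -0.078 (WT_PBS and KO_PBS, replicate 2) to 0.435 (WT_ASO and KO_ASO, replicate 4). In 14 of 20 checks a sample correlated best with its own number among 4, in 4 of 4 for WT_PBS and WT_ASO. With the replicate block, 7 members were called in KO_PBS vs WT_PBS in place of 5, Tnnt1 and Tnnc1 being added, while calls among all genes went from 1878 to 2322 of 14960. It called 0 members in each other comparison.

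Signs changed for Tnnc1 in KO_ASO vs KO_PBS, at -0.022 with library totals only, -0.30 with limma-voom, -0.25 with the replicate block, and from -1.14 to 0.43 without single replicates, and for the Tnnc2 interaction, at -0.014 with library totals only and from -0.050 to 0.12 without single replicates. Without single replicates WT_ASO vs WT_PBS ran from -0.15 to 0.47 for Tnni1, -0.084 to 0.52 for Tnnt1 and -0.084 to 0.54 for Tnnt2, and the interaction from -0.0030 to 0.13 for Tnni2 and -1.53 to 0.060 for Tnnc1.

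Shares depend on the length used. With no length scaling the Tnni1 share was 0.0372% in WT_PBS, 0.0395% in WT_ASO, 0.416% in KO_PBS and 0.172% in KO_ASO, and the Tnnt2 share 0.0166%, 0.0186%, 0.0728% and 0.0372%. With the longest transcript the Tnnt2 share was 0.00538%, 0.00603%, 0.0236% and 0.0121% in the same order, and the Tnnt1 share 0.0326%, 0.0349%, 0.179% and 0.0864%, a rise in every group.

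Of the lists, slow fibre calls in KO_PBS vs WT_PBS numbered 2, 1 with no filter and 4 with DESeq2 or limma-voom. Fast fibre calls numbered 4, 7 with DESeq2, 8 with limma-voom and 2 in the compared groups alone. In KO_ASO vs KO_PBS fast fibre calls numbered 1, 0 with no filter or in the compared groups alone, and 2 with DESeq2 or library totals only, and macrophage calls 7, and 3 with no filter or in the compared groups alone. In the interaction developmental calls numbered 3 and macrophage calls 2, and 7 and 8 with DESeq2; macrophage calls were 1 with no filter. In KO_ASO vs WT_PBS developmental calls numbered 2, 6 with DESeq2, and 1 with no filter, limma-voom or the compared groups alone. Alternatives for the lists in these comparisons were added after seeing the data. Slow and cardiac members, at 35 to 1983 counts in a sample, had SE several times those of the fast genes. A difference of about 2-fold could therefore miss the adjusted threshold. An example is Tnnt2 in KO_ASO vs WT_PBS (log2FC 1.01, 95% interval 0.27 to 1.75, edgeR adjusted P = 0.468).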
